A study of Mus musculus with 9 samples.

Results

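Ephrins, Eph receptors, semaphorins, plexins, neuropilins, Slits, Robos and netrins are proteins best known for guiding growing axons. The genes were chosen by name: every mouse symbol starting with Epha, Ephb, Efna, Efnb, Sema, Plxna, Plxnb, Plxnc or Plxnd followed by a digit, and in addition Nrp1, Nrp2, Slit1, Slit2, Slit3, Robo1, Robo2, Robo4, Ntn1, Ntn4, Unc5b and Neo1. The rule found 64 of the 27179 genes in the count table. Of these, 63 code for proteins, and Plxna4os1 is an antisense RNA that matches the letters of the rule. The rule uses names and no expression value, but the genes were chosen with earlier results of these data known.

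The data were bulk RNA-seq counts of 3 luminal epithelial populations sorted from the mammary glands of adult mice, with 3 libraries each. All 3 were lineage-negative (Lin-) cells defined by CD14 and by a YFP reporter that Cre driven by the progesterone receptor gene (PR-cre) switches on, so YFP records that a cell or its ancestor used that promoter. CD14+ YFP- cells are the hormone receptor negative luminal progenitors (HR-negative LP), CD14+ YFP+ cells the hormone receptor positive luminal progenitors (HR-positive LP), and CD14- cells the mature luminal cells (ML). The sample labels call ML cells YFP+ and the series text calls them YFP-; the sample labels were followed here. No drug or other treatment is named, and the sources used here do not give strain, sex or whether mice were pooled. Nothing states that the 3 libraries of a population came from separate mice, so the p-values measure only the spread between these samples, which may be technical.

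Library totals ran from 27219103 to 108119756 counts, with 15239 to 17735 genes detected. Levels are CPM, the count of a gene over the library total after TMM scaling, and RPKM, which also divides by gene length, is used where different genes are compared. Cd14, used in the sort, fell from 1114 ± 103 CPM (SD, n = 3) in HR-negative LP to 324 ± 35.2 in HR-positive LP and 24.7 ± 6.04 in ML, and Pgr, which encodes the progesterone receptor, was 9.42 ± 5.54, 279 ± 65.8 and 435 ± 144 CPM in the same order. The 4 luminal markers Epcam, Krt8, Krt18 and Krt19 summed to between 11272 and 15062 CPM in the 9 libraries. Within that sum, mean Epcam was 3514, 1884 and 1322 CPM and mean Krt19 2830, 4230 and 4374 CPM in the same order. The 8 basal markers summed to between 24.5 and 70 CPM, and the 7 immune markers to between 1.04 and 2.35 CPM.

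As background, ephrins are membrane-bound ligands that bind Eph receptor tyrosine kinases on a touching cell; ephrin-A ligands are held by a lipid anchor and ephrin-B ligands span the membrane. Semaphorins signal through plexins, and most of the secreted class 3 semaphorins need a neuropilin as co-receptor. Slits signal through Robos, and netrins through neogenin (Neo1), Dcc and the Unc5 family. In the mammary gland these systems are known from studies of duct branching, of adhesion between the luminal and basal layers and of cap cells at the duct tip.

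Of the 64 genes, 51 had enough counts to be tested. Between HR-negative and HR-positive LP, 14 of the 51 were lower in HR-positive LP (27.5%), where 12.8% of all 15910 tested genes were lower, and 10 were higher (19.6%), where 17.2% of all tested genes were higher. The count of 14 became 8 on leaving out HR-positive LP library 1 and 7 on leaving out its library 2. Between HR-positive LP and ML, 13 of the 51 were lower in ML (25.5%), against 6.7% of all tested genes. None was higher in ML than in HR-positive LP by edgeR's quasi-likelihood test, against 0.0943% of all tested genes; 2 had an unadjusted p under 0.05, DESeq2 called 0 and limma voom called 1, Robo1. Between HR-negative LP and ML, 19 were lower in ML (37.3%), against 21.3% of all tested genes, and 10 were higher (19.6%), against 23.3%. The median log2 fold change of the 51 genes was -0.64 for HR-positive against HR-negative LP, where the median of all tested genes was 0.01. It was -0.09 for ML against HR-positive LP and -0.71 for ML against HR-negative LP, where the medians of all tested genes were 0.01 and 0.03. In either direction, 29.9% of all tested genes were called for HR-positive against HR-negative LP, 6.79% for ML against HR-positive LP and 44.6% for ML against HR-negative LP. The comparisons share libraries, so their counts are not independent of each other. A gene is called here at a Benjamini-Hochberg adjusted p below 0.05 over all 15910 tested genes. Unless another setting is named, calls by edgeR are those of the main fit to all libraries.

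The called genes fell into few patterns, plotted in the display of fold changes. Most of them belonged to either of these sets: 11 genes were lower at both steps, from HR-negative to HR-positive LP and again to ML (Efna1, Efna5, Efnb2, Epha2, Epha4, Epha7, Ntn1, Ntn4, Plxnb1, Sema6a and Sema6d), and 10 were higher in both HR-positive LP and ML than in HR-negative LP with no call between the last 2 (Efna3, Nrp1, Plxna1, Plxna2, Plxnb2, Robo1, Sema3f, Sema4c, Sema4f and Sema7a). Efnb1, Ephb3 and Ephb4 were called lower in both populations than in HR-negative LP, with no call by edgeR between HR-positive LP and ML. Ephb2 and Sema5a were lower in ML than in either progenitor, and Sema3c, Sema3e and Sema6c had 1 call by edgeR, lower in ML than in HR-negative LP. The other 22 tested genes had no call by edgeR, and it called no gene higher, or lower, in HR-positive LP than in both other populations. Some of these missing calls were made by other tools, or by edgeR with other settings. DESeq2 called Plxnd1, Sema3g, Sema5a and Slit3 lower in HR-positive than in HR-negative LP, for ML against HR-positive LP Ephb3 and Sema3e lower, and for ML against HR-negative LP Plxnb3, Slit1 and Unc5b lower and Slit2 higher. Limma voom called Sema3c, Sema3g, Sema5a and Slit1 lower in HR-positive than in HR-negative LP, and for ML against HR-negative LP it called Efna2 and Robo4 higher.

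**Figure D1:**
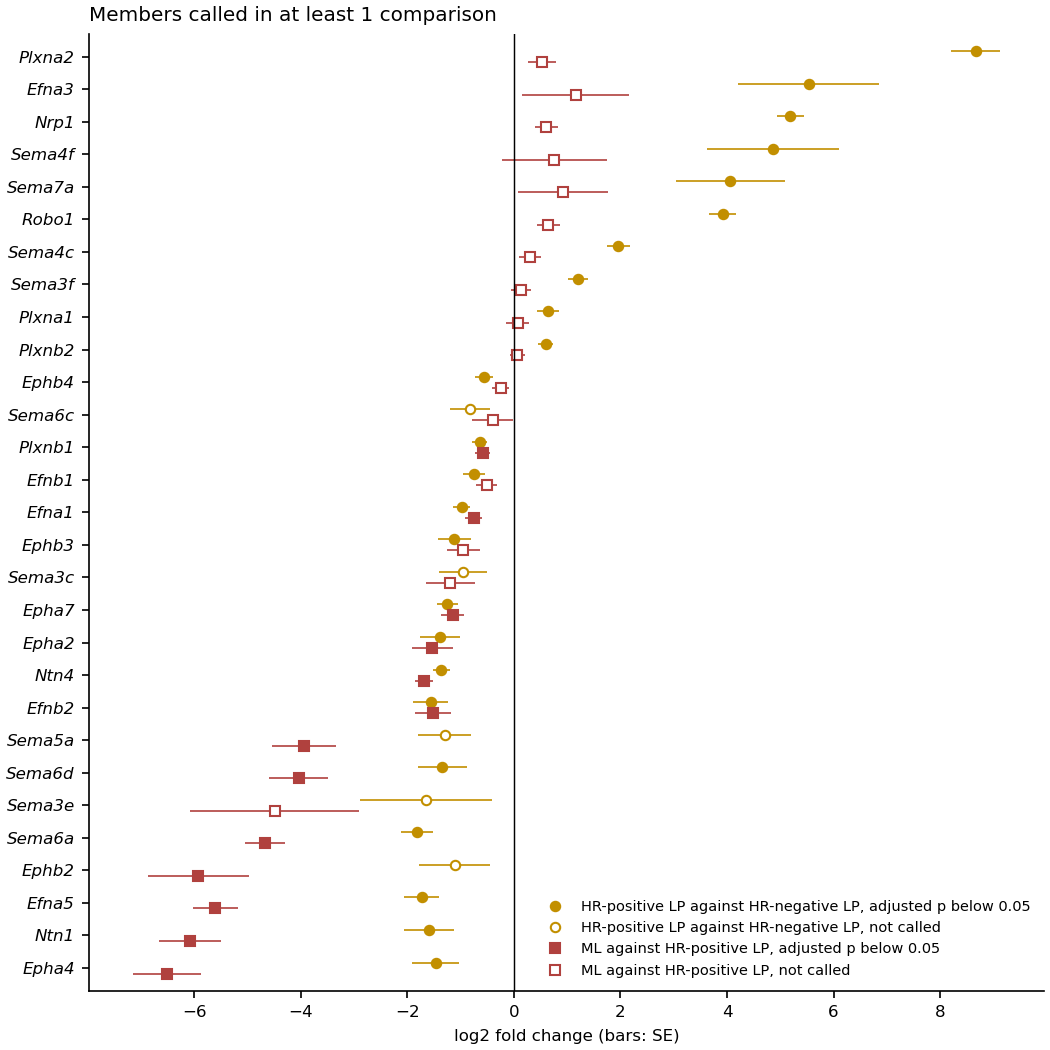
Log2 fold change (x axis, with SE bars) of the 29 guidance genes called in at least 1 comparison, for HR-positive LP against HR-negative LP (circles) and ML against HR-positive LP (squares); filled symbols have an adjusted p below 0.05. The 10 genes at the top are right of 0 at the first step with open squares at the second, and Efna5, Epha4 and Ntn1 have their larger fall at the second step.

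Ephrin ligands as a group were at their highest in HR-negative LP. Summed over the 8 genes, the level per length was 157 ± 6.27 RPKM in HR-negative LP, then 78 ± 2.48 in HR-positive LP and then 46.2 ± 4.41 in ML. Of the 8, all tested, Efna1, Efna5, Efnb1 and Efnb2 were lower in HR-positive than in HR-negative LP, Efna3 was higher, and Efna2, Efna4 and Efnb3 were not called by edgeR (Efna2 in ML against HR-negative LP had an adjusted p of 0.0449 by limma voom). Of all tested genes, 12.8% were lower and 17.2% higher in HR-positive than in HR-negative LP.

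Efna1, ephrin-A1 (gene 13636, 3:89271730-89280951 in GRCm38), a high-affinity ligand of EphA2, was the most abundant ephrin per length in each population. Its libraries held 174, 161 and 132 CPM in HR-negative LP, then 71.8, 83.9 and 80.7 in HR-positive LP and then 43.4, 41 and 56 in ML. The 3 populations did not overlap. The log2 fold change was -0.98 ± 0.16 (SE, adjusted p 0.000979) from HR-negative to HR-positive LP and -0.75 ± 0.16 (adjusted p 0.0125) from HR-positive LP to ML. The second call was lost on leaving out HR-positive LP library 2 (adjusted p 0.0636), HR-positive LP library 3 (0.0524), ML library 1 (0.0667) or ML library 2 (0.0806).

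Efna5, ephrin-A5 (gene 13640, 17:62602957-62881317), which can also bind EphB2, was close to 0 in ML. It stood at 97.3, 107 and 88.1 CPM in HR-negative LP, 28.4, 29.3 and 30.5 in HR-positive LP, with 0.234, 0.319 and 1.2 in ML. The ML mean was 0.6% of the HR-negative LP mean, and each population lay below the one before it with no overlap. The log2 fold change was -1.73 ± 0.33 (adjusted p 0.00257) at the first step and -5.60 ± 0.42 (adjusted p 6.31e-06) at the second.

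Efnb2, ephrin-B2 (gene 13642, 8:8617235-8661242), a transmembrane ligand best known from arteries and lymphatic valves, fell at each step without reaching such low levels. Its values were 62.9, 69.9 and 71.2 CPM in HR-negative LP, 24.9, 18.9 and 25.2 in HR-positive LP, with 6.9, 4 and 13.1 in ML. The log2 fold changes were -1.56 ± 0.33 (adjusted p 0.0048) and -1.52 ± 0.34 (adjusted p 0.0165), with no overlap at either step. The second call was lost on leaving out HR-positive LP library 1 (adjusted p 0.0541), HR-positive LP library 3 (0.0562) or ML library 1 (0.0791). Efnb1, ephrin-B1, another transmembrane ligand, had a shallower fall, with 58, 74.8 and 105 CPM in HR-negative LP, 47.9, 40.9 and 52.2 in HR-positive LP, while ML had 35.4, 34.8 and 29. Neighbouring populations did not overlap, and the step from HR-negative to HR-positive LP was called (log2 fold change -0.75 ± 0.20, adjusted p 0.0176) while the step to ML was not (-0.51 ± 0.20, adjusted p 0.275, and 0.0423 with only the 2 populations fitted). The Efnb1 call was lost on leaving out HR-positive LP library 1 (adjusted p 0.0527) or library 2 (0.0814).

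Efna3, ephrin-A3 (gene 13638), moved in the other direction at a low level. It had 3 counts in all across the HR-negative LP libraries (0, 0.0307 and 0 CPM), against 1.47, 0.0934 and 0.723 CPM in HR-positive LP, and ML had 2.58, 1.23 and 1.32 CPM. Every HR-positive LP and ML library lay above every HR-negative LP library, and HR-positive LP overlapped ML. The adjusted p was 0.00923 for HR-positive against HR-negative LP, and 0.0533 by limma voom; Efna3 did not pass the count filter when only these 2 populations were fitted, and no fold is given against so few counts. Of the exon bases of Efna3, 14.1% also lie in an annotated gene on the opposite strand, and the library kit does not mark strand, so reads of the 2 genes cannot be told apart there.

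Promoters of ephrins from both sets are shown because genes that move together can be compared at their starts. The 150 bases before the annotated start are given below for Efna1 (chr3:89280952-89281101, minus strand), Efna5 (chr17:62881318-62881467, minus strand) and Efnb2 (chr8:8661243-8661392, minus strand), which fell at both steps, and for Efna3 (chr3:89322940-89323089, minus strand), which rose. They are RefSeq sequences of build GRCm38.p6, read 5′ to 3′ in the direction of the gene, with each CG pair in capitals.
Efna1: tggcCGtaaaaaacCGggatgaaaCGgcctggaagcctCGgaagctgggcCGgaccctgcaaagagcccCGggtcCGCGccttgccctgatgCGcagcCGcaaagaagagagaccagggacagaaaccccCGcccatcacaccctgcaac
Efna5: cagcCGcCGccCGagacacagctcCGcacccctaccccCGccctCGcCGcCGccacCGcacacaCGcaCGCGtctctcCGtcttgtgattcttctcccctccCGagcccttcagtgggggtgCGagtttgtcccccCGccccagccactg
Efnb2: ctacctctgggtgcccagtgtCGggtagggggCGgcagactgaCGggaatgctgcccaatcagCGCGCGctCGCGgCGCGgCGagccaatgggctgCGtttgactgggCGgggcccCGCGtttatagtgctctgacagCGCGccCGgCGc
Efna3: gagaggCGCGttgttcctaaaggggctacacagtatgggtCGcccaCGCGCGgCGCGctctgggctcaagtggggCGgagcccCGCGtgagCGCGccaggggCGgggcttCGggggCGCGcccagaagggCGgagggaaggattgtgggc
These windows hold 11, 16, 19 and 18 CG pairs in the order printed. Efna1 and Efna3 are close neighbours on chromosome 3 and had opposite patterns. A promoter was found for 55 of the 64 genes, in 71 windows. Over the 250 bases before the start, the median was 20.5 CG pairs for 12 windows, from 9 genes lower at both steps. It was 17 for 11 windows, from 8 genes higher in HR-positive LP and ML, and 16 for all 71. For all 32851 windows, from 27025 genes, it was 6. These 32851 windows were not matched to the guidance genes by gene type or expression. From 250 bases before to 50 after the start, on both strands, the palindromic estrogen response element was in 0 of the 71 windows and in 0.07% of all windows, and the forkhead motif TGTTTAC was in 0 of 71 and 3.65% of all. The ETS motif ACAGGAAGT was in 1 of the 71, that of Sema4d, and in 1.03% of all windows. The GATA motif GATAAG was in 2 of the 71, those of Epha3 and Unc5b, and in 7.44% of all windows. Sema4d and Unc5b had no call by edgeR, and Epha3 was not tested.

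Eph receptors had the highest summed level per length of the guidance families in both progenitors, and they too were at their highest in HR-negative LP. Their summed level was 396 ± 106 RPKM in HR-negative LP, then 177 ± 45.7 in HR-positive LP and then 86.3 ± 18.7 in ML. Of the 14 receptor genes, 8 were tested; 5 were lower in HR-positive than in HR-negative LP, 4 were lower in ML than in HR-positive LP, 6 were lower in ML than in HR-negative LP, and none was called higher in any comparison (edgeR). Of all tested genes, 12.8%, 6.7% and 21.3% were lower in the same order of comparisons. The mean of each of the 8 tested receptors was highest in HR-negative LP and lowest in ML.

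Epha2 (gene 13836, 4:141301221-141329384), a receptor studied in mammary duct branching, was the most abundant guidance gene per length in HR-negative LP at 277 RPKM. Its libraries gave 709, 1173 and 1386 CPM in HR-negative LP, 275, 386 and 587 in HR-positive LP, with 89.1, 116 and 229 in ML. The populations did not overlap although libraries within each differed widely, and library 3 was the highest in each. The log2 fold changes were -1.39 ± 0.38 (adjusted p 0.0187) and -1.53 ± 0.38 (adjusted p 0.0359), and -2.91 ± 0.40 (adjusted p 0.000148) for ML against HR-negative LP. The first was lost on leaving out HR-negative LP library 3 (adjusted p 0.0565), HR-positive LP library 1 (0.0734) or library 2 (0.0722). With the replicate number in the edgeR fit as a block, the first had an adjusted p of 8.32e-05. The second was lost on leaving out HR-positive LP library 2 (adjusted p 0.0814), HR-positive LP library 3 (0.155), ML library 1 (0.142) or ML library 2 (0.168).

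Epha4 (gene 13838, 1:77367182-77515107), a receptor for both classes of ephrin, went from a moderate level to nearly none. It had 58.1, 54.7 and 52.8 CPM in HR-negative LP, 24.3, 15.6 and 19.9 in HR-positive LP, with 0.067, 0 and 0.565 in ML. The ML mean was 0.382% of the HR-negative LP mean, from 26 counts over the 3 ML libraries. The fall from HR-positive LP to ML had a log2 fold change of -6.51 ± 0.64 (adjusted p 4.49e-05). The fall from HR-negative to HR-positive LP, -1.47 ± 0.45 (adjusted p 0.03), was lost with DESeq2 (adjusted p 0.23) and on leaving out HR-negative LP library 2 (0.0638) or, of HR-positive LP, library 1 (0.0605), 2 (0.124) or 3 (0.0843), although no library of the 2 populations overlapped.

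Epha7, an EphA receptor known from development of the nervous system, fell in similar steps. It measured 35.8, 34.5 and 34.1 CPM in HR-negative LP, 14.1, 14.5 and 15.3 in HR-positive LP, with 5.19, 8.87 and 5.7 in ML. The log2 fold changes were -1.25 ± 0.20 (adjusted p 0.00102) and -1.15 ± 0.21 (adjusted p 0.00417), with no overlap at either step. Epha1 was at 47.7 ± 4.84, 43.4 ± 5.3 and 37.6 ± 2.67 CPM, and was not called in the main edgeR fit. It was called lower in ML than in HR-negative LP with a filter of CPM over 1 and on leaving out HR-negative LP library 1. Of its exon bases, 6.01% are shared with Zyx on the opposite strand.

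Among the EphB receptors, Ephb3 was the most abundant per length in both progenitors, and Ephb2 had the steepest fitted fall. Ephb3 held 152, 224 and 332 CPM in HR-negative LP, 83.2, 93.2 and 150 in HR-positive LP, with 48, 46.4 and 74.7 in ML, and library 3 was again the highest in each population. It was called lower in HR-positive than in HR-negative LP (log2 fold change -1.12 ± 0.31, adjusted p 0.0197) and lower in ML than in HR-negative LP (-2.07 ± 0.32, adjusted p 0.000333), and not between HR-positive LP and ML (-0.95 ± 0.31, adjusted p 0.128). That last step was called with the replicate number as a block, which pairs these populations (-0.93 ± 0.13, adjusted p 0.00125), and by DESeq2 (adjusted p 0.0479). The Ephb3 call in HR-positive LP was lost on leaving out HR-negative LP library 3 (adjusted p 0.0698), HR-positive LP library 1 (0.0804) or library 2 (0.0837). With the replicate number as a block, edgeR gave that call an adjusted p of 0.00022.

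Ephb2, which binds ephrin-B ligands, had 4.28, 3.95 and 8.91 CPM in HR-negative LP, 2.73, 1.34 and 3.83 in HR-positive LP, with 0, 0 and 0.118 in ML, where 5 counts were seen in all. The progenitor populations did not overlap, yet their difference was not called (adjusted p 0.247); ML against HR-positive LP was (log2 fold change -5.92 ± 0.95, adjusted p 0.00185; limma voom adjusted p 0.0609). Ephb4, the main receptor of ephrin-B2, had 86.2, 76.2 and 63.2 CPM in HR-negative LP, 56.9, 49.6 and 46.5 in HR-positive LP, with 44.8, 47.1 and 36.3 in ML. HR-negative LP lay above both other populations, which overlapped each other. The Ephb4 log2 fold change was -0.56 ± 0.16 (adjusted p 0.0215) for HR-positive against HR-negative LP and -0.82 ± 0.16 (adjusted p 0.00169) for ML against HR-negative LP. The first was lost with library totals alone (adjusted p 0.074) and on leaving out HR-negative LP library 1 (0.0513) or 2 (0.0528), or of HR-positive LP library 2 (0.0825) or 3 (0.0885). Ephb6, which lacks kinase activity, had 57.7 ± 11, 54.2 ± 13.8 and 51.7 ± 16.1 CPM and overlapped throughout.

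The other 6 receptors were not tested: Epha5, Epha8 and Epha10 had no count in any library, and Epha3, Epha6 and Ephb1 had at most 45 counts summed over a population.

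**Figure D2:**
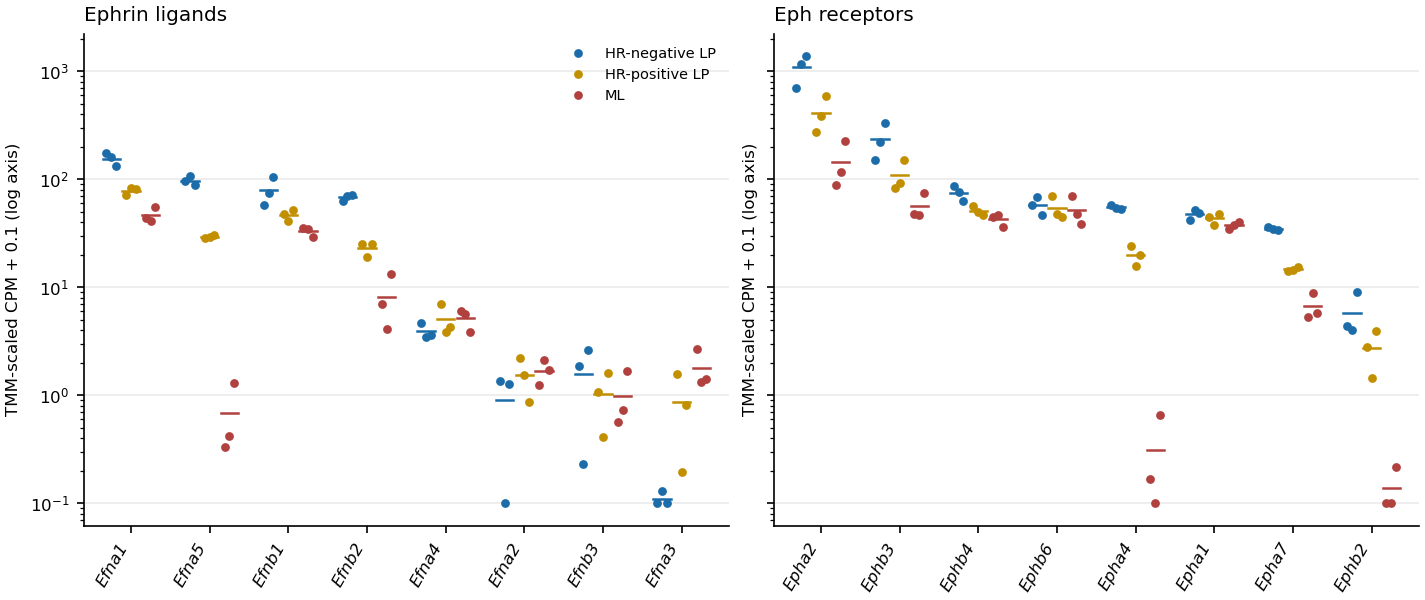
TMM-scaled CPM plus a small offset (log axis) of the 8 ephrins and the 8 tested Eph receptors, 1 point per library and a bar at the mean of each population. In ML, Ephb2 drops to the foot of the axis, and Efna5 and Epha4 drop towards it. Epha1 and Ephb6 have no call by edgeR, and Efna3 alone among the ephrins is called higher by edgeR in HR-positive LP and ML.

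Netrins were also at their highest in HR-negative LP. Summed over Ntn1, Ntn4, Unc5b and Neo1, the level was 249 ± 39.8 RPKM in HR-negative LP, then 94.4 ± 6.82 in HR-positive LP and then 21.6 ± 1.85 in ML. Both ligands were lower at both steps, and neither receptor was called in the main edgeR fit.

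Ntn1, netrin-1 (gene 18208, 11:68209364-68386826), a secreted laminin-related ligand that acts with neogenin in the end buds of growing ducts, was second among the guidance genes in HR-negative LP, at 176 RPKM. Its libraries held 849, 1179 and 993 CPM in HR-negative LP, 309, 329 and 359 in HR-positive LP, with 5.96, 1.06 and 7.84 in ML. ML was at 0.492% of the HR-negative LP mean, and the populations did not overlap. The log2 fold change to ML from HR-positive LP was -6.08 ± 0.58 (adjusted p 3.44e-05). That to HR-positive from HR-negative LP was -1.60 ± 0.47 (adjusted p 0.0249), and it was lost on leaving out HR-negative LP library 2 (adjusted p 0.0678) or HR-positive LP library 1 (0.0806), 2 (0.0841) or 3 (0.061).

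Ntn4, netrin-4 (gene 57764, 10:93641049-93745972), a basement membrane protein that binds laminin, was also graded, without near loss in ML. It had 121, 157 and 128 CPM in HR-negative LP, 48.2, 49.8 and 60 in HR-positive LP, with 19.4, 14.2 and 15.5 in ML. The log2 fold changes were -1.36 ± 0.16 (adjusted p 0.000146) and -1.69 ± 0.17 (adjusted p 4.86e-05), with no overlap at either step. Neo1, neogenin, stood at 91.4 ± 18.6, 85.6 ± 11.4 and 81.4 ± 8.24 CPM, with log2 fold changes of -0.10 ± 0.17, -0.07 ± 0.17 and -0.17 ± 0.17 in the 3 comparisons. Unc5b, a netrin receptor known from vessels, stood at 29 ± 10.4, 18 ± 3.54 and 16.9 ± 5.64 CPM, and its adjusted p for ML against HR-negative LP was 0.0573 by edgeR and 0.0327 by DESeq2. With the replicate number as a block, edgeR called Unc5b lower in both HR-positive LP and ML than in HR-negative LP.

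Semaphorins, unlike the groups above, summed to more in HR-positive LP and ML than in HR-negative LP, at 72.6 ± 10.3 RPKM in HR-negative LP, then 114 ± 11.2 in HR-positive LP and then 124 ± 13.7 in ML. Sema4c alone went from 10.7 to 41.4 and 51.1 RPKM in the same order. Of the 20 genes, 17 were tested. For ML against HR-negative LP, 6 of these were lower and 4 higher, where 21.3% and 23.3% of all tested genes were. The median log2 fold change of the 17 was -0.26 for HR-positive against HR-negative LP and -0.42 for ML against HR-negative LP. Sema3f, Sema4c, Sema4f and Sema7a were higher in both HR-positive LP and ML than in HR-negative LP, while Sema6a and Sema6d fell at both steps.

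Sema4c (gene 20353, 1:36548639-36560699), a transmembrane class 4 semaphorin that binds plexin-B2, was the most abundant semaphorin per length in HR-positive LP and ML, at 41.4 and 51.1 RPKM. It had 31.2, 47.2 and 43.2 CPM in HR-negative LP, 121, 172 and 179 in HR-positive LP, with 149, 217 and 217 in ML. HR-negative LP lay apart from the other populations, which overlapped. The log2 fold change was 1.96 ± 0.22 (adjusted p 9.22e-05) for HR-positive against HR-negative LP and 0.30 ± 0.21 (adjusted p 0.698) for ML against HR-positive LP. Of its exon bases, 7.27% are shared with a gene on the opposite strand.

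Sema3f (gene 20350, 9:107681499-107710475), a secreted class 3 semaphorin, had 20.8, 32.4 and 20.3 CPM in HR-negative LP, 60.8, 57.6 and 52.1 in HR-positive LP, with 71.3, 61.3 and 55.3 in ML. HR-negative LP again stood apart, with a log2 fold change of 1.21 ± 0.19 (adjusted p 0.000927) to HR-positive LP and 0.14 ± 0.19 (adjusted p 0.908) from there to ML. Its usual co-receptor Nrp2 was at 0.48 ± 0.367, 0.203 ± 0.123 and 0.336 ± 0.269 CPM.

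Sema7a, a lipid-anchored semaphorin, and Sema4f, a class 4 member, started from almost nothing. Sema7a held 0.404, 0 and 1 CPM in HR-negative LP, 5.66, 4.01 and 10.5 in HR-positive LP, while ML had 9.31, 7.13 and 21.8. Its log2 fold change at the first step was 4.06 ± 1.02 (adjusted p 0.0118), with 5.34 on leaving out HR-negative LP library 3, 3.32 on leaving out its library 2 and 6.64 by limma voom. Sema4f held 0.363, 0.0102 and 0 CPM, then 1.25, 2.09 and 7.66, then 1.61, 5.83 and 11.1 (adjusted p 0.0131 at the first step, and 0.088 by limma voom). The Sema4f log2 fold change of 4.86 ± 1.24 became 8.55 on leaving out HR-negative LP library 1 and 3.71 on leaving out HR-positive LP library 3. For both, HR-negative LP did not overlap the other populations, and HR-positive LP and ML overlapped.

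In the other direction, Sema6a, a transmembrane ligand of plexin-A2 and plexin-A4, fell from 17.1, 22.5 and 28.3 CPM in HR-negative LP to 7.1, 6.58 and 5.63 in HR-positive LP, and ML had 0.201, 0.149 and 0.4. Its log2 fold changes were -1.81 ± 0.30 (adjusted p 0.00104) and -4.67 ± 0.37 (adjusted p 8.85e-06), without overlap. Sema6d, a ligand of plexin-A1, had 8.36, 9.08 and 7.34 CPM, then 3.88, 1.29 and 4.58, then 0.234, 0.106 and 0.259. Its fall to ML from HR-positive LP was -4.04 ± 0.56 (adjusted p 0.000623, and 0.0747 by limma voom). The first Sema6d step, -1.34 ± 0.46, was called (adjusted p 0.0483) and was lost with library totals alone (0.0739), with only the 2 populations fitted (0.0634), and on leaving out HR-negative LP library 1 (0.0749), 2 (0.104) or 3 (0.0604), or of HR-positive LP library 1 (0.092), 2 (0.122) or 3 (0.0506).

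Sema5a, with thrombospondin repeats, was at 11.3, 21.6 and 21 CPM in HR-negative LP, 8.28, 5.87 and 7.71 in HR-positive LP, with 1.11, 0.149 and 0.259 in ML. The progenitors did not overlap. By edgeR the fall to ML was called, at -3.94 ± 0.60 from HR-positive LP (adjusted p 0.00123) beside -1.30 ± 0.50 (adjusted p 0.073) for HR-positive against HR-negative LP. The adjusted p of the latter was 0.0255 by DESeq2, 0.00398 by limma voom and 0.0133 with only the 2 populations fitted. Sema3c, a secreted ligand, had 10.6 ± 0.942, 5.45 ± 1.6 and 2.37 ± 1.62 CPM and was called for ML against HR-negative LP (-2.15 ± 0.47, adjusted p 0.00328). For HR-positive against HR-negative LP, limma voom gave Sema3c an adjusted p of 0.0127. Sema6c had 9.43 ± 3.55, 5.34 ± 1.79 and 4.06 ± 1.33 CPM, and its call for ML against HR-negative LP (-1.22 ± 0.39, adjusted p 0.0248) was lost with library totals alone (0.0522), with limma voom (0.053) and on leaving out HR-negative LP library 1 (0.0893), ML library 2 (0.0513) or ML library 3 (0.0915). Sema3e had 1.27 ± 0.996 CPM in HR-negative LP, then 0.403 ± 0.307 in HR-positive LP and only 2 counts in all in ML, with an adjusted p of 0.0106 for ML against HR-negative LP, and 0.0716 by limma voom. It did not pass a filter of CPM over 1, nor the count filter when only these 2 populations were fitted.

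Of the remaining class 4 semaphorins, none was called by edgeR, while library totals alone called Sema4a and Sema4d higher for ML against HR-negative LP. Sema4d, a ligand of plexin-B1, had 71.8 ± 10.9, 85.8 ± 9.38 and 85.6 ± 9.76 CPM. Sema4a had 49.4 ± 8.68, 55.5 ± 5.72 and 57.9 ± 3.5 CPM, and Sema4b 36.6 ± 5.28, 37.7 ± 2.09 and 33.8 ± 9.92 CPM. The libraries of these 3 overlapped between populations. Sema4g and Sema6b had means from 2.7 to 5.89 CPM, Sema3b and Sema3g from 0.0589 to 1.56 CPM, and these 4 were not called by edgeR either. DESeq2 (adjusted p 0.0165) and limma voom (0.0249) called Sema3g lower in HR-positive than in HR-negative LP. Sema3a, Sema3d and Sema5b were not tested, with at most 13 counts summed over a population.

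Plexins, the semaphorin receptors, summed to 78.1 ± 6.55 RPKM in HR-negative LP, then 97.2 ± 5.05 in HR-positive LP and then 96.1 ± 4.66 in ML. Of 9 plexin genes 7 were tested, and 3 were higher and 1 lower in HR-positive than in HR-negative LP. With the 2 neuropilins included, 4 of 9 tested were higher. Of all tested genes, 17.2% were higher and 12.8% lower in that comparison.

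Plxnb2, plexin-B2, was the most abundant plexin in each population, at 43.4, 66 and 68.7 RPKM. It had 280, 331 and 243 CPM in HR-negative LP, 453, 431 and 414 in HR-positive LP, with 444, 489 and 418 in ML. HR-negative LP lay below both others (log2 fold change 0.60 ± 0.14, adjusted p 0.00889, to HR-positive LP), which overlapped (0.06 ± 0.14, adjusted p 0.963). Plxnb1, plexin-B1, had the opposite order, with 168, 158 and 163 CPM in HR-negative LP, 126, 97 and 90.8 in HR-positive LP, while ML had 74.1, 63.6 and 72.3. No library of one population overlapped another. The Plxnb1 log2 fold changes were -0.64 ± 0.14 (adjusted p 0.00657) and -0.58 ± 0.14 (adjusted p 0.033), the second lost with library totals alone (0.106) and on leaving out HR-positive LP library 1 (0.166) or 2 (0.0668) or ML library 1 (0.0772), 2 (0.184) or 3 (0.0964).

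Plxna2, plexin-A2 (gene 18845, 1:194619791-194816869), was close to 0 in HR-negative LP alone. The HR-negative LP libraries held 4 counts in all (0, 0.0307 and 0.0358 CPM), while HR-positive LP had 11, 8.57 and 10.4 CPM and ML 15.8, 15.4 and 12.2 CPM. The adjusted p for HR-positive against HR-negative LP was 1.03e-06, and no fold is given because the fitted value depends on the count added to so few reads. ML lay above HR-positive LP in each library, which was not called (log2 fold change 0.53 ± 0.27, adjusted p 0.475). Plxna1, plexin-A1, had 33.4, 44.6 and 66.9 CPM in HR-negative LP, 72.1, 73.7 and 79.9 in HR-positive LP, with 72.5, 81 and 83.8 in ML. Its rise to HR-positive LP was small (0.64 ± 0.21, adjusted p 0.0412) and was lost with a filter of CPM over 1 (0.0512), with only the 2 populations fitted (0.0823), and on leaving out HR-negative LP library 1 (0.0705) or 2 (0.11), or of HR-positive LP library 1 (0.0807), 2 (0.0949) or 3 (0.11). Plxna1 in ML against HR-negative LP (0.71 ± 0.21, adjusted p 0.0181) was lost on leaving out HR-negative LP library 2 (0.0573), ML library 2 (0.0579) or ML library 3 (0.0548). Of the Plxna1 exon bases, 10.7% are shared with a gene on the opposite strand.

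Plxna3 was at 67.3 ± 6.81, 66.9 ± 2.38 and 62.1 ± 2.8 CPM and had no call. Plxnd1 and Plxnb3 had means from 0.186 to 2.67 CPM with no call by edgeR (Plxnd1 in HR-positive against HR-negative LP had an adjusted p of 0.0107 by DESeq2 and 0.0396 with a filter of CPM over 1), and Plxna4 and Plxnc1 were too low to be tested.

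Nrp1, neuropilin-1 (gene 18186, 8:128358591-128505476), a co-receptor for class 3 semaphorins and for VEGF, had the smallest p of all the guidance genes for HR-positive against HR-negative LP. It rose from 0.706, 1.01 and 0.573 CPM in HR-negative LP to 34.1, 24.2 and 29.4 in HR-positive LP, with 54, 38.7 and 41.1 in ML. The log2 fold change was 5.19 ± 0.26 (adjusted p 6.87e-07) to HR-positive LP. Each ML library was above each HR-positive LP library, and that difference was not called (0.61 ± 0.21, adjusted p 0.164). Nrp1 is also a gene of endothelial cells, and the 8 endothelial markers summed to between 7.99 and 14.6 CPM in HR-negative LP, then 41.3 and 63.3 in HR-positive LP and then 60.1 and 81.6 in ML. Nearly all of that rise was Vwf (2.92 ± 2.17, 46.4 ± 13 and 66.2 ± 11.3 CPM), the only one of the 8 called. The other 7 summed to between 6.07 and 9.16, 2.99 and 6.75, and 5.46 and 6.62 CPM, with Pecam1 at 3.39, 2.5 and 3.37 CPM and Cdh5 at 0.592, 0.69 and 0.558 CPM. Of the 8 markers, 4 had a mean under 1 CPM in HR-negative LP and 6 in each of the other populations, and none was at 0 throughout a population.

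Robo1 (gene 19876, 16:72027518-73047491), a Slit receptor studied in duct branching, had a similar pattern. It had 1.96, 3.31 and 1.68 CPM in HR-negative LP, 40.3, 33.6 and 34.2 in HR-positive LP, with 65.5, 50.5 and 53.2 in ML. The log2 fold change was 3.92 ± 0.25 (adjusted p 3.18e-06) to HR-positive LP and 0.65 ± 0.22 (adjusted p 0.158) from there to ML. No library of any population overlapped another, and the last step passed the threshold with limma voom and with only the 2 populations fitted. The Slit ligands were close to absent: the means of Slit1, Slit2 and Slit3 lay between 0.131 and 1.85 CPM in every population, with no call by edgeR. For HR-positive against HR-negative LP, Slit3 had an adjusted p of 0.00634 by DESeq2 and Slit1 of 0.0178 by limma voom. There edgeR also called Slit3 lower with only the 2 populations fitted and on leaving out HR-negative LP library 1. Robo4, an endothelial receptor, was at 0.0119, 0.0657 and 0.29 CPM, and Robo2 had 8 counts in all, in ML.

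**Figure D3:**
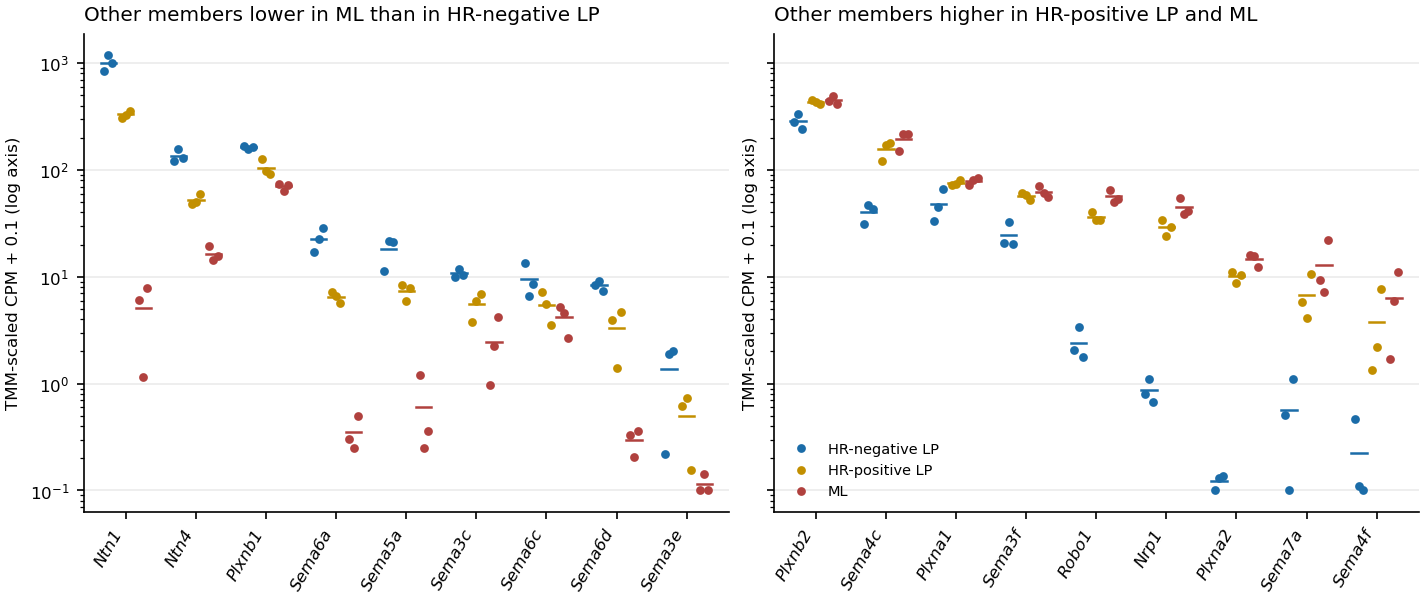
TMM-scaled CPM plus a small offset (log axis) of the called netrins, semaphorins, plexins, Nrp1 and Robo1, 1 point per library and a bar at the mean of each population. On the left HR-positive LP lies between HR-negative LP and ML. On the right Plxna2 leaves the foot of the axis in HR-positive LP and ML, and Nrp1, Robo1, Sema4f and Sema7a rise from low levels.

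HR-positive LP had an intermediate mean for each of the 19 genes lower in ML than in HR-negative LP, at 28.4 to 67.8% of the HR-negative LP mean with a median of 40.5%. How often the mean is intermediate among all tested genes was not counted. Of the 19, 8 had an ML mean under 5% of HR-negative LP (Efna5, Epha4, Ephb2, Ntn1, Sema3e, Sema5a, Sema6a and Sema6d). Their HR-positive LP means ran from 28.4 to 46.1% of HR-negative LP, with a median of 34.5%. The 4 markers of HR-negative progenitors were at similar shares: Cd14 at 29.1%, Kit at 33.5%, Elf5 at 34.7% and Csn3 at 25.2%. Their sum was 4471 to 5334 CPM in HR-negative LP, 1464 to 1496 in HR-positive LP and 63 to 98 in ML. The part of these cells in the values of the 19 genes was not tested. In bulk libraries, fewer cells of a type and less RNA per cell cannot be told apart.

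For the 10 genes called higher in ML against HR-negative LP, HR-positive LP stood at 44.5 to 96% of the ML mean, with a median of 67.2%. The hormone-sensing markers Pgr, Esr1, Foxa1 and Prlr stood at 64.1, 75.7, 74.2 and 65.4% of ML, and their sum was 173 to 410 CPM in HR-negative LP, 4558 to 5534 in HR-positive LP and 6509 to 9016 in ML. Nrp1 at 65.5%, Robo1 at 63.9% and Plxna2 at 69% lay close to these shares, and Plxnb2 at 96%, Plxna1 at 95.1% and Sema3f at 90.8% lay above them. The part of hormone-sensing cells in the values of the 10 genes was not tested.

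**Figure D4:**
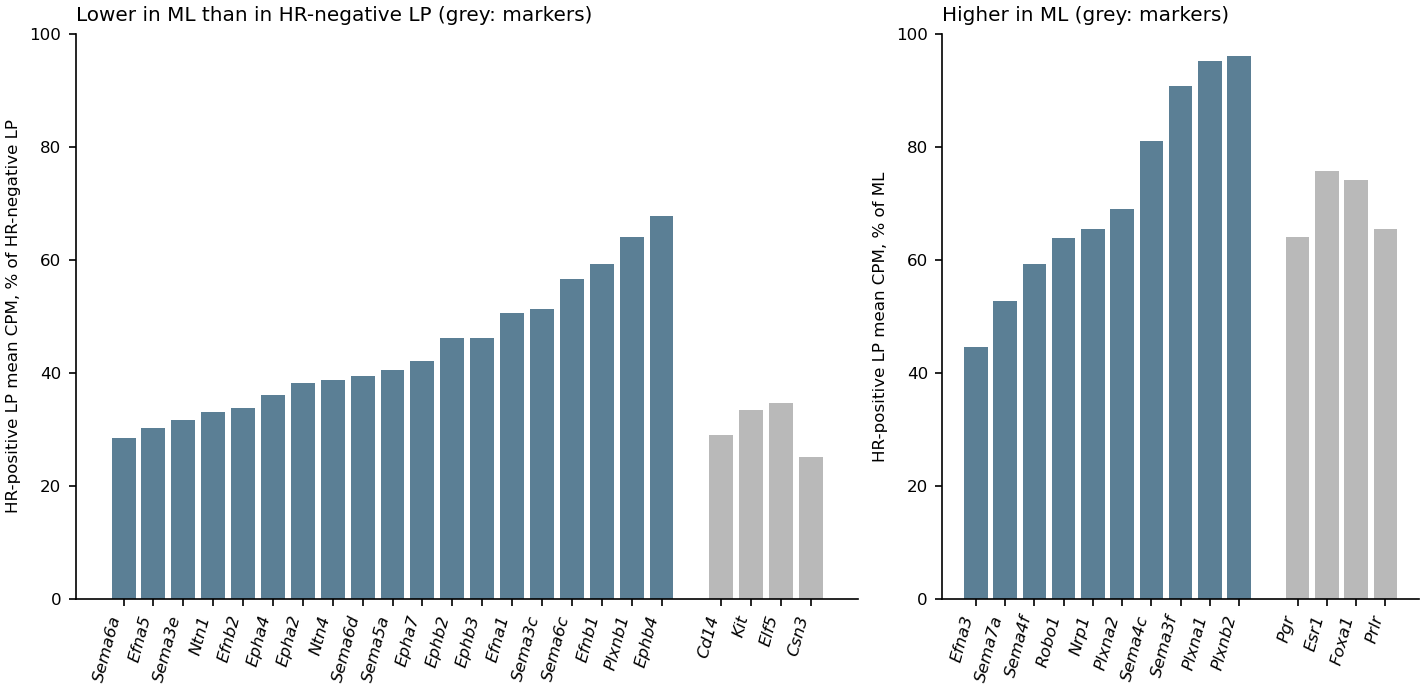
Mean CPM of HR-positive LP as a percentage of the population with the higher level: of HR-negative LP for the 19 falling genes (left) and of ML for the 10 rising genes (right), with 4 lineage markers in grey in each panel. Falling genes run from 28.4 to 67.8% beside markers at 25.2 to 34.7%, and rising genes from 44.5 to 96% beside markers at 64.1 to 75.7%.

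Markers of other cells moved in part with these groups. Without Dcn, the 6 other fibroblast markers summed to 69 to 116 CPM in HR-negative LP, 11.4 to 23.8 in HR-positive LP and 18.1 to 34.5 in ML. Dcn had 8.94 ± 2.14, 129 ± 109 and 153 ± 128 CPM; of the 7, it alone was called higher in HR-positive than in HR-negative LP and the other 6 were lower. The 4 pericyte markers summed to 24.9 to 57.2, 14.6 to 27.5 and 4.69 to 9.75 CPM, a fall that was nearly all Mcam (43.6, 18.3 and 5.72 CPM), the only one of the 4 called; Rgs5, Pdgfrb and Des had means under 1 CPM. The 4 Schwann and nerve markers summed to 10.2 to 17, 6.17 to 6.56 and 2.3 to 5.9 CPM. Of the 8 basal markers, Krt14 had 14.3, 4.22 and 4.18 CPM and Krt17 8.06, 3.23 and 1.84 CPM, both called lower in each of the other populations than in HR-negative LP. Oxtr had 15.3, 4.52 and 0.293 CPM and was called lower in ML than in either progenitor, Krt5 had 2.25, 4.76 and 6.36 CPM and was called higher for ML against HR-negative LP, and the other 4 were not called. The part of these cells in the lower genes was not tested.

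Of 62 other genes of the same pathways, 53 were tested. From HR-negative to HR-positive LP 11 were higher and 13 lower, where 17.2% and 12.8% of all tested genes were. From HR-positive LP to ML 0 were higher and 12 lower by edgeR, where 0.0943% and 6.7% of all tested genes were. From HR-negative LP to ML 14 were higher and 21 lower, where 23.3% and 21.3% of all tested genes were. The same shares of all tested genes apply to the counts of each list below.

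Among other netrin and RGM family ligands and receptors, 10 of 16 were tested, with 2 higher and 2 lower in HR-positive than in HR-negative LP. Flrt3, a membrane protein that binds Unc5 receptors and Robo1, was lower at both steps, with 77.3 ± 7.67, 22.8 ± 5.14 and 0.686 ± 0.277 CPM (log2 fold change -5.10 ± 0.28 from HR-positive LP to ML, adjusted p 8.95e-07). Ntng1, netrin-G1, had 42.1 ± 8.19, 15.2 ± 2.41 and 0.244 ± 0.23 CPM, and Rgma, a neogenin ligand, 29.9 ± 9.24, 14.2 ± 5.09 and 2.52 ± 1.82 CPM; both were lower in ML than in HR-positive LP. Dscam, a cell-adhesion molecule that can bind netrin-1, went the other way, from 0.0202, 0.154 and 0.107 CPM in HR-negative LP to 8.75, 26.1 and 29.6 in HR-positive LP, and ML had 11.4, 42 and 34.6 (adjusted p 4.45e-05 for the first step, 0.0582 by limma voom). Dcc, the classical netrin receptor, had 0 CPM in all 9 libraries.

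Of the co-receptors and sheddases, 9 of 11 were tested, with 3 higher and 2 lower in HR-positive than in HR-negative LP. Adam10, a protease that cuts ephrins bound by Eph receptors, had 86.7, 140 and 107 CPM in HR-negative LP, 588, 624 and 607 in HR-positive LP, with 750, 929 and 789 in ML. Its log2 fold change was 2.45 ± 0.18 (adjusted p 7.69e-06) to HR-positive LP and 0.44 ± 0.17 (adjusted p 0.262) from there to ML. Met, the HGF receptor, which associates with class B plexins, had 514, 592 and 511 CPM, then 213, 192 and 198, then 27.4, 38.3 and 33.3. Its log2 fold changes were -1.42 ± 0.15 (adjusted p 5.44e-05) and -2.61 ± 0.15 (adjusted p 1.37e-06), with no overlap.

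Of 11 Eph effectors, all tested, 4 were higher and 2 lower in HR-positive than in HR-negative LP. Of the higher ones, Inppl1, the lipid phosphatase SHIP2 that binds EphA2, had 116 ± 22.5, 416 ± 96 and 535 ± 132 CPM. Nck2, also higher, had 142 ± 19.5, 269 ± 37.6 and 307 ± 35.1 CPM. The effector with the smallest p at the first step was higher too and is not reported here. Tiam1, a Rac exchange factor, fell from 63.8 ± 23.8 to 18 ± 2.41 and 1.29 ± 0.346 CPM, both steps called. Vav2 fell from 112 ± 30.8 to 59.4 ± 3.68 and 32.1 ± 1.28 CPM, and its second step (adjusted p 0.0108) was lost on leaving out ML library 3 (0.0538).

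Of the 16 plexin and semaphorin effectors 15 were tested, with 2 higher and 5 lower at the first step and 4 lower at the second. Mical2, a flavin oxidase of actin, had 4.01 ± 2.9, 35.2 ± 2.75 and 50.6 ± 7.05 CPM and Gipc1, which binds neuropilin-1, 40.8 ± 11, 72.5 ± 3.85 and 82.1 ± 1.85 CPM; these were the higher ones. Fes, a tyrosine kinase, had 25.4 ± 1.95, 13.4 ± 0.495 and 7.69 ± 0.275 CPM and was lower at both steps. All 8 Slit and Robo effectors were tested, and Srgap3, a Rac-directed GTPase activating protein, had the largest fall, with 93.3 ± 26.5, 33.5 ± 3.78 and 1.82 ± 0.565 CPM (log2 fold change -4.22 ± 0.29 from HR-positive LP to ML, adjusted p 3.63e-06).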

How the data were processed

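RNA was extracted with DNase treatment, and libraries were made from at least 50 ng with a TruSeq RNA v2 kit, which does not mark strand, per the labels' protocols. The authors deposited raw read counts per gene for 9 libraries; featureCounts and mm10 are named in the submitters' processing notes. The aligner was not given in the sources used here. The deposited gene length column was used for RPKM. The series table and the sample files did not differ in any of their count cells. Gene IDs were matched to RefSeq symbols of GRCm38.p6 for 25275 of 27179 genes (93.0%).

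Counts were tested with edgeR 4.0.16 in R 4.3.3: genes kept by filterByExpr by population (15910), TMM scaling, a quasi-likelihood fit on all 9 libraries with no covariate, and Benjamini-Hochberg adjustment over all tested genes. DESeq2 1.42.0, limma 3.58.1 voom, library totals alone, other filters, fits of only the groups compared, the replicate number as a block and leaving out each library were alternatives. The fit was also run on simulated counts with known changes, and the outcome is not reported here. Each result rests on 27219103 to 108119756 counts per library, which sets the precision for low genes.

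Members and gene lists were chosen with earlier results of these data known. Library values are given for members called in at least 1 comparison with a mean of at least 5 CPM in a population, up to 10 per direction and comparison by smallest p; genes of other lists are named up to 4 per list and comparison. Efna3, Sema3e and members without a call are described for their role. The source of the replicate numbers is not stated. Deviations of same-numbered libraries correlated at 0.183, 0.121 and 0.189 between HR-positive LP and ML. They correlated at 0.133, 0.0389 and 0.147 between HR-negative and HR-positive LP, and at 0.0526, 0.0254 and 0.0849 between HR-negative LP and ML. Different-numbered libraries gave -0.142 to -0.0503, -0.146 to 0.0192 and -0.0816 to 0.0183 in the same order. In each pair of populations, every same-numbered value was above every different-numbered value. This pairing is seen from the data alone, and the main fit does not use it.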

Additional observations from a re-analysis of the deposited data

How the results depend on the processing

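Of 855 values of the 66 called results of single guidance genes under the alternatives, 67 lost the call and 0 reversed; these came from 19 results. Leaving out 1 library each, the guidance genes called lower in HR-positive than in HR-negative LP ranged from 7 to 16 (main 14), with 8 on leaving out replicate 1 of HR-positive LP and 7 on leaving out its replicate 2, and those called higher from 9 to 10. For ML against HR-positive LP the same ranges were 9 to 13 lower and 0 higher, and for ML against HR-negative LP 18 to 21 lower and 9 to 10 higher. With limma voom, and with only the groups compared, 1 gene (Robo1) was higher in ML than in HR-positive LP against 0. With the replicate number as a block the counts were 10 higher and 17 lower, 0 and 14, and 10 and 20 in the order HR-positive against HR-negative LP, ML against HR-positive LP and ML against HR-negative LP, and no call was lost. Library totals alone moved the median log2 fold change of all genes to 0.12, 0.06 and 0.19 from 0.01, 0.01 and 0.03, and the split of all genes at the first comparison to 3182 higher and 1535 lower from 2731 and 2033. Over all genes, 15 were higher in ML than in HR-positive LP, against 216 with only the groups compared and 4 without HR-positive LP replicate 2. The cause of these differences was not tested. Genes with few counts, such as Efna3 and Sema3e, are limited by depth.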
